A study of Mus musculus with 45 samples.

Results

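The Cyp4 family of cytochrome P450 fatty acid omega-hydroxylases was followed in mouse liver through 10 genes, chosen by symbol from the 23227 genes of the deposited count tables: Cyp4a10, Cyp4a12a, Cyp4a12b, Cyp4a14, Cyp4a31, Cyp4a32, Cyp4f13, Cyp4f14, Cyp4f15 and Cyp4v3. All 10 were found, and all 10 passed the filter on low counts that left 14067 genes for testing. The data were polyA mRNA libraries from livers of wild-type C57BL/6J mice, all 24 weeks old and starved overnight. There were 45 libraries in 14 groups of 3, with 6 in the group taken 30 min after insulin on 16 weeks of high-fat diet (HFD). Mice on HFD for 16 weeks began it at 8 weeks of age and mice on HFD for 6 weeks began it at 18 weeks, so duration and age at the start cannot be told apart. The 16-week HFD groups were metformin, basal, and insulin at 15, 30, 60 and 120 min. The 6-week HFD groups were metformin and basal, and the chow groups were metformin, basal, and insulin at the same 4 times. Insulin was injected intraperitoneally at 1 U/kg, and metformin was given in the drinking water at 270 mg/kg of lean body mass per day.

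Omega-hydroxylases place a hydroxyl group on the last carbon of a fatty acid. The product is oxidised further to a dicarboxylic acid, which is shortened in peroxisomes, so the pathway is a side route for fatty acids beside mitochondrial beta-oxidation. In rodent liver the Cyp4a genes are classical targets of PPAR alpha, the fatty acid receptor that is active in fasting, and Cyp4a10 and Cyp4a14 are its usual readouts. In the mouse, Cyp4a12a is expressed more in males and makes 20-HETE, a vasoactive product of arachidonic acid. The Cyp4f enzymes act on leukotrienes, tocopherols and long fatty acids. Mouse Cyp4f14 hydroxylates leukotriene B4 and vitamin E, and Cyp4v3 is the mouse counterpart of human CYP4V2, the gene mutated in Bietti crystalline dystrophy.

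Several of these genes are recent copies of each other, and this sets how well reads could be told apart. In the deposited mm9 gene models the 6 Cyp4a genes lie together on chromosome 4: Cyp4a12a at chr4:114971651-115005420 (+), Cyp4a12b at chr4:115084229-115111639 (+), Cyp4a14 at chr4:115158805-115168746 (-), Cyp4a10 at chr4:115190892-115206254 (+), Cyp4a31 at chr4:115236254-115251620 (+) and Cyp4a32 at chr4:115273543-115294971 (+). The 3 Cyp4f genes lie on chromosome 17: Cyp4f15 at chr17:32822604-32840294 (+), Cyp4f14 at chr17:33042015-33054287 (-) and Cyp4f13 at chr17:33061633-33084306 (-). Cyp4v3 stands alone at chr8:46391156-46418550 (-). No exon of the 10 genes overlapped an exon of another gene. Coding sequences of Cyp4a12a and Cyp4a12b were 98.5% identical, with 23 differing bases of 1527 and one identical stretch of 342 bases. Cyp4a10 was 97.2% identical to Cyp4a32 and 96.6% identical to Cyp4a31. Cyp4a14 stood further off, at 75.1% to 76% identity with the other Cyp4a genes, and Cyp4v3 had 49.9% to 52.6% identity with the other 9. Of the 40-base words in its transcripts, the length of the shorter reads, Cyp4a12b shared 56.2% with another gene, Cyp4a12a 55.5%, Cyp4a32 56.8%, Cyp4a10 36.7% and Cyp4a31 25.4%. For Cyp4a14 this share was 0.733%, and for the Cyp4f genes and Cyp4v3 it was 4.06% to 7.27%. Counts of Cyp4a12a against Cyp4a12b, and of Cyp4a10 against Cyp4a31 and Cyp4a32, are therefore uncertain, because reads in shared stretches could be dropped or misplaced, and the fold changes of the summed counts of each set are given in the comparisons of diets and of metformin on 16-week HFD.

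**Figure D1:**
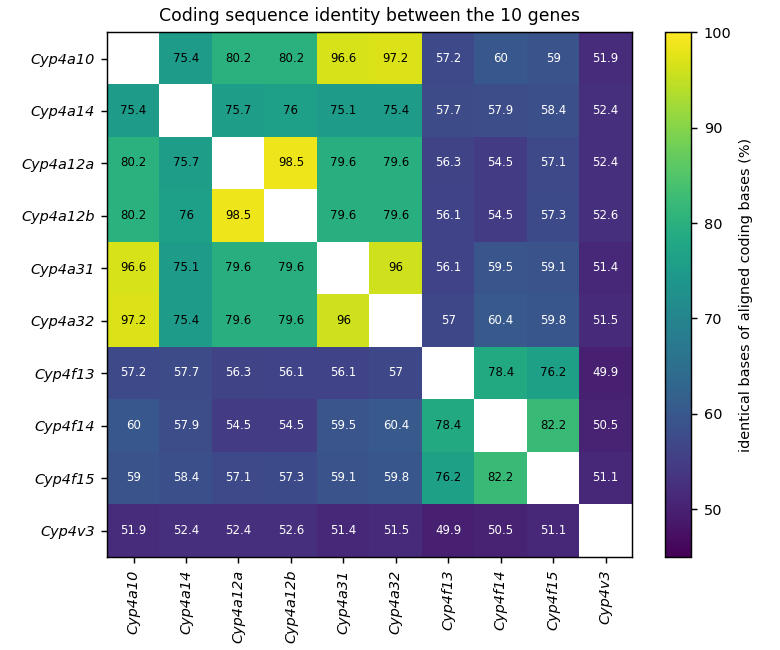
Percent of identical bases between the aligned coding sequences of each pair of the 10 genes. Cyp4a12a with Cyp4a12b (98.5%) and Cyp4a10 with Cyp4a31 and Cyp4a32 (96.6% and 97.2%) form 2 sets of near copies, while Cyp4a14, the Cyp4f genes and Cyp4v3 stand apart.

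The stretches below show what separates the copies. Each is 60 bases of coding sequence on the plus strand of GRCm38, taken where the set differs most within 1 exon, with the positions that differ within the set in capitals. Both stretches of the first pair lie in exon 6, at coding bases 630 to 689 counted from 1 at the start codon, and hold 4 of the 23 differences.
Cyp4a12a, chr4:115326628-115326687: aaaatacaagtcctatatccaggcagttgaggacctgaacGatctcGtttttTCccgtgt
Cyp4a12b, chr4:115432881-115432940: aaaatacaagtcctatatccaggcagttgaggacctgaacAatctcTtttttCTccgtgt
The 3 stretches of the second set lie in exon 2, at coding bases 200 to 259, and hold 9 of the 77 positions that differ among the 3 genes.
Cyp4a10, chr4:115519640-115519699: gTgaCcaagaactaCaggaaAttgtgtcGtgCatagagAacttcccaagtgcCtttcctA
Cyp4a31, chr4:115565020-115565079: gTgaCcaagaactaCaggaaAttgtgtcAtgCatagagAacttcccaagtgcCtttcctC
Cyp4a32, chr4:115602270-115602329: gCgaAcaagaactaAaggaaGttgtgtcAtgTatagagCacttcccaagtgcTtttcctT
In this window Cyp4a32 carries most of the differing letters, and Cyp4a10 and Cyp4a31 are nearly alike. Reads from the longest identical stretches of a set cannot be assigned to 1 copy.

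RefSeq promoter entries on GRCm38.p6, 250 bases before to 50 after a start, were at hand for Cyp4a32, Cyp4f13, Cyp4f14 (with 4 starts), Cyp4f15 and Cyp4v3. They are given here for Cyp4a32, as the one entry of a gene from the Cyp4a cluster, and for the first start of Cyp4f14, the gene called higher in basal livers on HFD. Capitals mark CCAAT or TATAAA on either strand, where ATTGG and TTTATA are their reverse complements; the motifs do not overlap.
Cyp4a32, chr4:115600688-115600987 (+): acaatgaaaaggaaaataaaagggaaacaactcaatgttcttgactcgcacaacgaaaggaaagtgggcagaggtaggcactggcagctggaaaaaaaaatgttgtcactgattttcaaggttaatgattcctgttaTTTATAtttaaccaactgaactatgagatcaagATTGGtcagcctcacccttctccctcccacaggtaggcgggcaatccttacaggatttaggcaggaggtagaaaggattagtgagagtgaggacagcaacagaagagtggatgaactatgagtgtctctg
Cyp4f14, chr17:32917307-32917606 (-): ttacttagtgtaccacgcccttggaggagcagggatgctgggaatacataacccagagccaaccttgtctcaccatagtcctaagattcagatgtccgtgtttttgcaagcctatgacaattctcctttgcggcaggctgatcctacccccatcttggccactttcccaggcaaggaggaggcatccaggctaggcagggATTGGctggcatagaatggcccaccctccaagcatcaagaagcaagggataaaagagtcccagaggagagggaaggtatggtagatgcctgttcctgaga
CCAAT was present in 37.4% and TATAAA in 13.6% of the 32851 promoter entries searched in the RefSeq table, counting either strand. The nuclear receptor hexamer AGGTCA, in 16.3% of these promoters, and its degenerate direct repeat with 1 spacer base, searched as AGGNCANAGGNCA and present in 0.381%, were not among the letters of the 8 entries. The windows are short, and sites outside them were not searched.

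Libraries held 18.2 to 50.3 M counted reads, and the least counted member, Cyp4a12b, still had 166 to 7514 reads per library. Levels are given as CPM, read counts scaled to a common library size with TMM factors. The groups all expressed the hepatocyte marker list, at a summed 89417 to 112321 CPM in 16-week HFD basal libraries and 92350 to 98175 CPM in chow basal libraries. Sex is not labelled; Ddx3y, a Y-linked gene, was expressed in every library (39.7 to 119 CPM) and Xist was at 0 to 0.311 CPM. Libraries differed in their trend with exon length: Spearman's rho across genes was -0.61 to -0.13 in the metformin libraries and -0.22 to 0.29 in the others. Replicate 1 of the 16-week HFD metformin group (-0.61) and replicate 1 of its basal group (-0.22) were the lowest of their groups, and results that rest on them are also given without both. Replicates 4 to 6 of insulin 30 min on 16-week HFD stood apart from replicates 1 to 3: their trend with GC content was -0.22 to -0.13, against 0.19 to 0.22, and the mean chi-square per gene was 74.2 to 121 between the sets and 20.1 to 58.4 within them. Results at that time are also given without them. The labels do not say that libraries come from separate litters or days, so p-values measure the spread between these libraries. Differences are log2 fold changes ± standard error from edgeR's quasi-likelihood fit, with p-values adjusted by Benjamini-Hochberg over all 14067 genes and called below 0.05.

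In chow livers Cyp4a14 and Cyp4a10 led the family by far. Per kilobase of exon, Cyp4a14 reached 781 CPM in 16-week HFD basal livers and 5253 CPM in chow basal livers. Cyp4a10 reached 754 CPM per kilobase in 16-week HFD basal livers and 2847 CPM per kilobase in chow basal livers. On this length-scaled measure both stood far above the other 8 genes in every diet. Cyp4a32 followed in chow with 189.8 CPM per kilobase, then Cyp4v3 with 149, Cyp4a12a with 91.7, Cyp4f15 with 75.5, Cyp4a12b with 71.2, Cyp4a31 with 65.8, Cyp4f13 with 32.2 and Cyp4f14 with 30.7. After 16 weeks of HFD the order below the leading pair was Cyp4v3 with 170.1 CPM per kilobase, Cyp4a32 with 89.9, Cyp4f15 with 87.5, Cyp4f14 with 55.3, Cyp4f13 with 32.9, Cyp4a31 with 26.5, Cyp4a12a with 24.1 and Cyp4a12b with 5.97. Cyp4f14 thus stood lowest of the 10 in chow and above 4 of the others after 16 weeks of HFD, while Cyp4a12b stood last. Together the 6 Cyp4a genes took 0.383% of counted reads in 16-week HFD basal livers, 0.93% in 6-week HFD basal livers and 2% in chow basal livers.

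After 16 weeks of HFD, all 6 Cyp4a genes were lower and Cyp4f14 was higher in basal livers, while Cyp4f13, Cyp4f15 and Cyp4v3 were not called. Of the 10 genes, 6 were called lower and 1 higher, where 16.3% of all tested genes were called lower and 16% higher (32.3% in either direction). The median log2 fold change was -1.19 over the 10 genes and 0.02 over all tested genes. In bulk liver, fewer cells that express a gene and less RNA per cell cannot be told apart.

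Cyp4a14, the most abundant member, had 2107, 2275 and 1460 CPM in basal livers after 16 weeks of HFD, against 11824, 14156 and 13339 CPM in the chow basal libraries. The groups were far apart, the highest HFD library lying well below the lowest chow library (log2 fold change -2.75 ± 0.26, edgeR adjusted p = 8e-09). Cyp4a10, a lauric acid hydroxylase and standard PPAR alpha readout, had 1669, 1650 and 1397 CPM on 16-week HFD, against 5446, 6509 and 5859 CPM on chow. All 3 HFD libraries again lay below all 3 chow libraries, with a 3.78-fold higher fitted level on chow (-1.92 ± 0.22, edgeR adjusted p = 8.34e-08).

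Of the 10 genes, Cyp4a12b, of the near-identical pair with male-biased Cyp4a12a, had the largest fold difference. It had 21.2, 14.4 and 7.32 CPM on 16-week HFD, against 169, 179.9 and 163 CPM on chow. The chow libraries lay close together, the HFD libraries were more spread but all far below them, and the fitted level was 11.9-fold higher on chow (-3.58 ± 0.43, edgeR adjusted p = 1.99e-07). Cyp4a12a had 61.8, 70.8 and 42.6 CPM on 16-week HFD, against 225, 223 and 218 CPM on chow (-1.93 ± 0.44, edgeR adjusted p = 0.000834). Since the pair shares sequence, the sum of both is the firmer measure, and it was lower by -2.43 (edgeR adjusted p = 2.46e-05). The near copies of Cyp4a10 were lower too, but by less. Cyp4a31 had 76.6, 75.9 and 46.8 CPM on 16-week HFD, against 144, 183 and 168 CPM on chow (-1.31 ± 0.27, edgeR adjusted p = 0.000296). Cyp4a32 had 191, 176 and 149 CPM on 16-week HFD, against 327, 404 and 358 CPM on chow (-1.08 ± 0.18, edgeR adjusted p = 2.8e-05). For neither gene did the groups overlap, and the sum of Cyp4a10, Cyp4a31 and Cyp4a32 was lower by -1.84 (edgeR adjusted p = 1.03e-07). Cyp4a10 made up most of that sum, at 1572 of 1811 CPM on 16-week HFD and 5938 of 6466 CPM on chow. All 6 calls, and that of Cyp4f14, were kept under each of the 14 alternatives run for them, among them leaving out each library in turn.

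**Figure D2:**
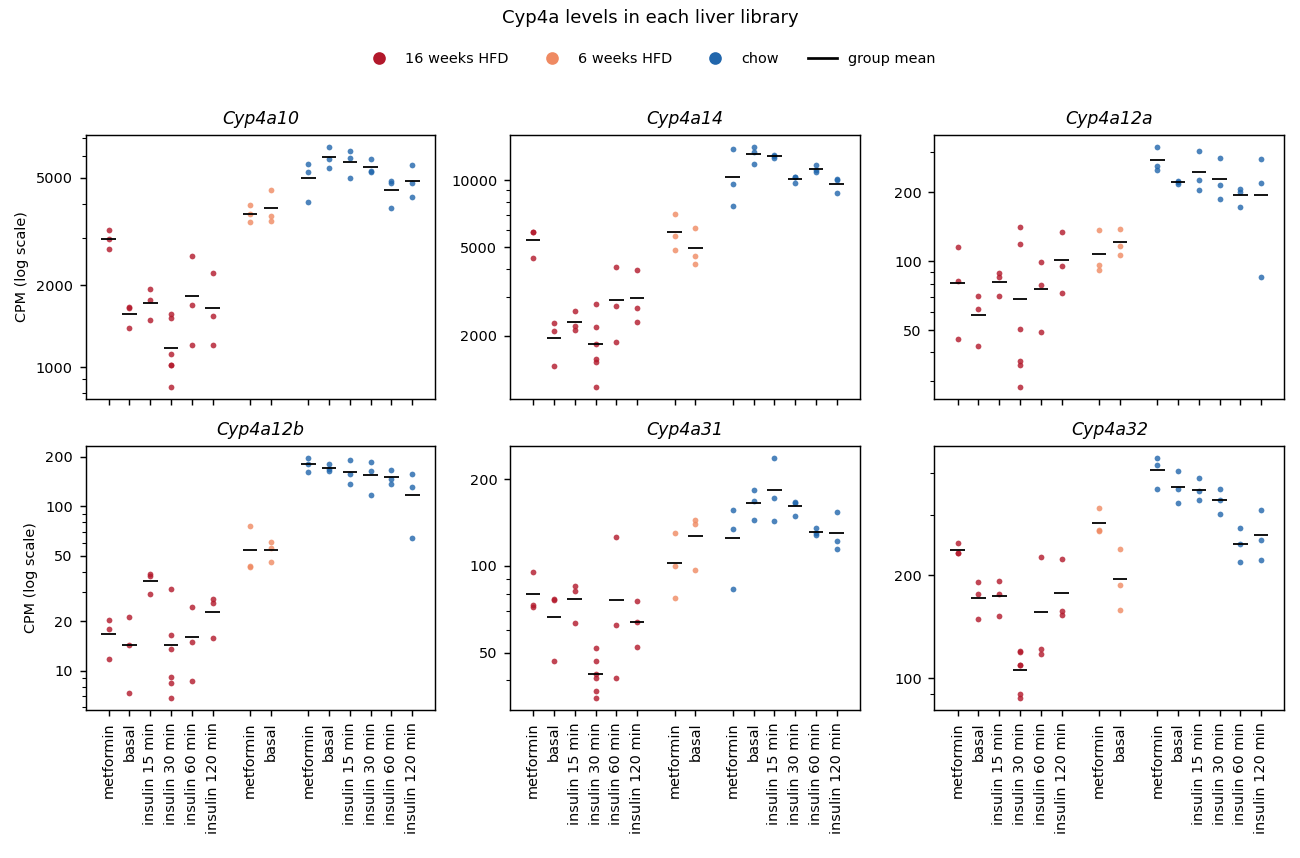
CPM (log scale) of the 6 Cyp4a genes in each of the 45 libraries, by group, with points for libraries and lines for group means. In each panel all 16-week HFD group means lie below all chow group means, with the 6-week HFD libraries between or beside them, and the metformin group of 16-week HFD stands above its basal group for Cyp4a10 and Cyp4a14.

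The Cyp4f genes and Cyp4v3 behaved differently. Cyp4f14 had 157, 142 and 100.4 CPM in 16-week HFD basal livers, against 86.3, 71.5 and 63.6 CPM in chow basal livers. The lowest HFD library lay above the highest chow library, and the rise was 1.8-fold (0.85 ± 0.21, edgeR adjusted p = 0.00217). Cyp4f13, a relative of Cyp4f14, had 68.3, 52.1 and 48.7 CPM on 16-week HFD, against 60, 51.3 and 54.2 CPM on chow, and Cyp4f15 had 213, 170.2 and 176 CPM on 16-week HFD, against 180.2, 165 and 138 CPM on chow. These groups overlapped, and neither gene was called. Cyp4v3 had 535, 464 and 496 CPM on 16-week HFD, against 504, 408 and 396 CPM on chow, with overlapping groups and no call. Summed, the 3 Cyp4f genes averaged 376 CPM on 16-week HFD and 290.0 CPM on chow, a small amount beside the 3831 CPM and 19965 CPM of the Cyp4a genes.

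**Figure D3:**
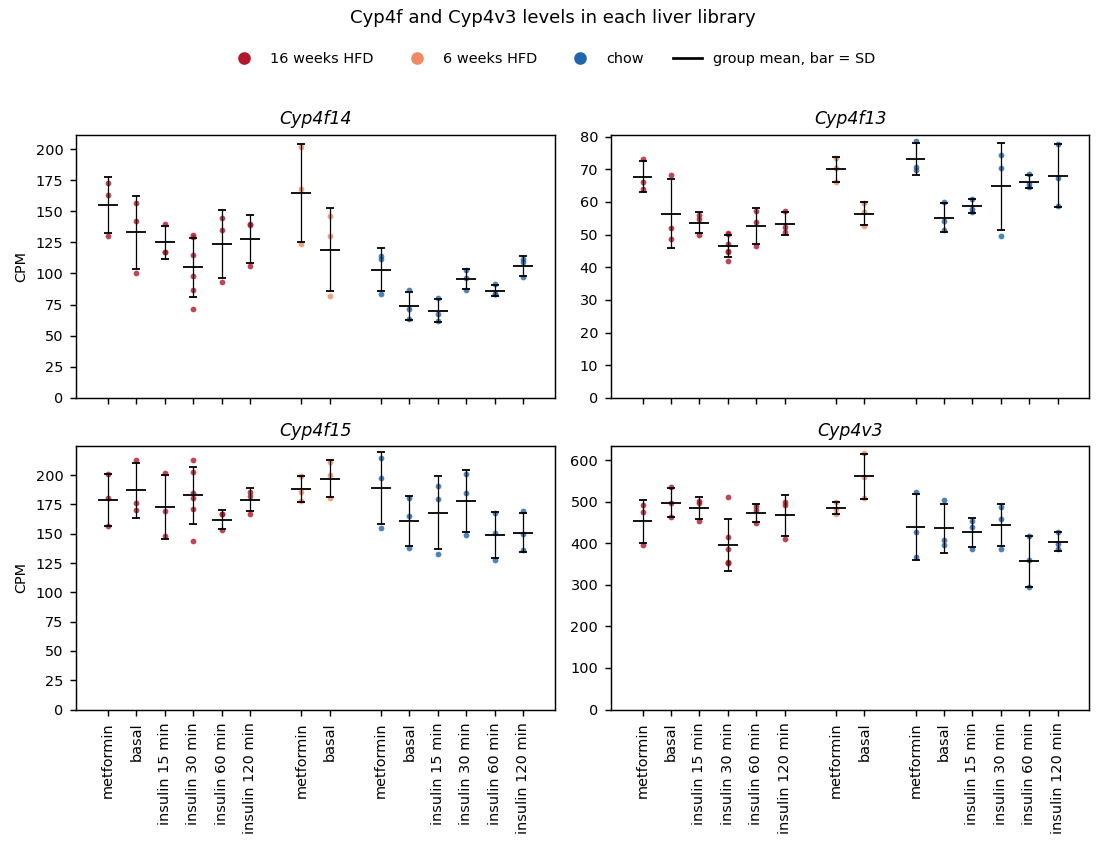
CPM of Cyp4f13, Cyp4f14, Cyp4f15 and Cyp4v3 in each library by group, on linear axes from 0, with the group mean and SD. Cyp4f14 lies at 100.4 to 157 CPM in basal livers on 16-week HFD and 63.6 to 86.3 CPM in basal livers on chow, while the other 3 genes overlap between these groups.

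The lower Cyp4a levels on 16-week HFD were also present in livers taken after insulin, which used other libraries of both diets. Over basal livers and the 4 insulin times, 29 of 30 tests of a Cyp4a gene were called lower, where 24.4%, 37.3%, 22.4% and 28.2% of all tested genes were called in either direction at 15, 30, 60 and 120 min. Of these, 12.2%, 17.2%, 11.5% and 13.6% of tested genes were called lower, and 12.3% and 10.9% were called higher at 15 and 60 min, the times at which a member was higher. The exception was Cyp4a12a at 120 min (-0.96, edgeR adjusted p = 0.0883), where the HFD libraries had 72.6, 134 and 95.8 CPM and the chow libraries 219.6, 280.4 and 85.3 CPM. One chow library there was as low as the HFD libraries; without it the gene was called (0.0298), and so it was with the replicate block (-0.95, 0.0228). Summed with Cyp4a12b it was called as well (-1.34, edgeR adjusted p = 0.011). Over the 4 insulin times that sum ran over -2.21 to -1.34 and the sum of Cyp4a10, Cyp4a31 and Cyp4a32 over -2.17 to -1.25, all called. Without replicates 4 to 6 of 16-week HFD at 30 min, Cyp4a12a differed there by -2.76 (edgeR adjusted p = 2.02e-07), against -1.73 with them, the other 5 Cyp4a genes stayed called at -3.59 to -1.60, and Cyp4v3 was called lower as well (-0.32, edgeR adjusted p = 0.0329). Across the 5 conditions the log2 fold change ran over -2.75 to -1.70 for Cyp4a14, -2.21 to -1.30 for Cyp4a10 and -3.58 to -2.20 for Cyp4a12b. It ran over -1.93 to -0.78 for Cyp4a31 and -1.65 to -0.57 for Cyp4a32. The other 4 genes had 3 calls higher and 3 lower in 20 tests, so they shared no direction. Cyp4f14 was called higher in basal livers and at 15 min, with log2 fold changes of 0.14 to 0.85 over the 5 conditions. Its lowest value, at 30 min, became -0.06 without replicates 4 to 6 of 16-week HFD. Cyp4v3 was higher at 60 min (0.41, edgeR adjusted p = 0.028), and Cyp4f13 was called lower at 30, 60 and 120 min. Only at 30 min was that last call kept in every alternative (-0.48, edgeR adjusted p = 0.000446), with 41.9 to 50.4 CPM and a median of 46.1 CPM in 6 HFD libraries, against 74.5, 70.3 and 49.5 CPM in chow libraries, 1 of which lay within the HFD range. At 60 and 120 min the weaker calls depended on single libraries. At 60 min, leaving out replicate 2 of 16-week HFD cost the calls of Cyp4a12a, Cyp4a31, Cyp4a32, Cyp4f13 and Cyp4v3 (adjusted p of 0.0777 to 0.21), replicate 3 of 16-week HFD those of Cyp4a31, Cyp4a32, Cyp4f13 and Cyp4v3 (0.0675 to 0.215), and a chow replicate those of Cyp4a12a (0.0591, replicate 1), Cyp4a31 (0.0584 to 0.0714), Cyp4f13 (0.069 to 0.106) or Cyp4v3 (0.0595 and 0.187, replicates 2 and 1). At 120 min Cyp4a32 and Cyp4f13 lost their calls without chow replicate 3 (0.124 and 0.181) or without replicate 1 or 2 of 16-week HFD (0.0731 to 0.105) and Cyp4f13 also without chow replicate 2 (0.0575). Cyp4a10, Cyp4a14 and Cyp4a12b kept their calls at all 4 times in each alternative run for them.

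After 6 weeks of HFD fewer members were called. Cyp4a14, Cyp4a12b and Cyp4a32 were called lower and Cyp4f14 higher in basal livers, where 11% of tested genes were called (5.03% lower and 5.98% higher). The chow basal libraries are the same as in the comparison with 16 weeks. Cyp4a14 had 4189, 4546 and 6086 CPM on 6-week HFD, below every chow basal library listed above (-1.41 ± 0.25, edgeR adjusted p = 0.000298). Cyp4a12b had 56.1, 45.8 and 60.4 CPM (-1.66 ± 0.40, edgeR adjusted p = 0.0056). Cyp4a32 had 159, 188 and 239.7 CPM (-0.89 ± 0.18, edgeR adjusted p = 0.00128). For these 3 genes no 6-week HFD library reached the chow range. Cyp4a10 had 3456, 3613 and 4505 CPM, also apart from chow, and just missed the threshold (-0.62 ± 0.21, edgeR adjusted p = 0.0549); 6 of 13 alternatives called it, among them leaving out replicate 3 of 6-week HFD (adjusted p = 0.0464), and summed with Cyp4a31 and Cyp4a32 it was called (-0.63, edgeR adjusted p = 0.0442). The sum of Cyp4a12a and Cyp4a12b was called as well (-1.16, edgeR adjusted p = 0.0492). Cyp4a12a alone, with 107, 117 and 139 CPM, was not called (-0.87, edgeR adjusted p = 0.193), except with only those groups in the fit (0.00274). Cyp4a31, with 139.8, 96.7 and 144 CPM, was not called either (-0.38, edgeR adjusted p = 0.407). Cyp4v3 had 508 to 617 CPM, above the 396 to 504 CPM of chow basal livers. It missed the threshold (0.36, edgeR adjusted p = 0.0775), and 3 of 13 alternatives called it. Cyp4f14 had 129.8, 146 and 82 CPM (0.69 ± 0.21, edgeR adjusted p = 0.0286). One of these libraries lay within the chow range, and the call was lost in 5 of 13 alternatives: without replicate 1 or 2 of 6-week HFD (adjusted p = 0.101 and 0.178), without chow replicate 2 or 3 (0.0989 and 0.145), and with only those groups in the fit (0.0693).

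Between the HFD groups themselves, 4 Cyp4a genes were lower after 16 than after 6 weeks, where 10.2% of tested genes were called and 6.03% were lower. Cyp4a10 differed by -1.30 ± 0.22 (edgeR adjusted p = 0.000782), Cyp4a14 by -1.34 ± 0.25 (edgeR adjusted p = 0.00196) and Cyp4a12b by -1.92 ± 0.41 (edgeR adjusted p = 0.00364). For each of the 3, all 16-week libraries lay below all 6-week libraries. Cyp4a31 differed by -0.93 ± 0.27 (edgeR adjusted p = 0.0221), a call lost without 16-week HFD replicate 3 (adjusted p = 0.125), without 6-week HFD replicate 1 or 3 (0.0876 and 0.0787), and with only those groups in the fit (0.0565). Cyp4a32 stood apart from the others, with 191, 176 and 149 CPM after 16 weeks and 159, 188 and 239.7 CPM after 6 weeks (-0.18, edgeR adjusted p = 0.565). Cyp4a12a, with 61.8, 70.8 and 42.6 CPM after 16 weeks and 107, 117 and 139 CPM after 6 weeks, was not called though its libraries were apart (-1.05, edgeR adjusted p = 0.11). It was called with the replicate block (0.0281), with only these groups in the fit (0.0357) and summed with Cyp4a12b (-1.27, edgeR adjusted p = 0.035). The sum of Cyp4a10, Cyp4a31 and Cyp4a32 was lower by -1.21 (edgeR adjusted p = 0.000906). None of the Cyp4f genes or Cyp4v3 was called between the durations.

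**Figure D4:**
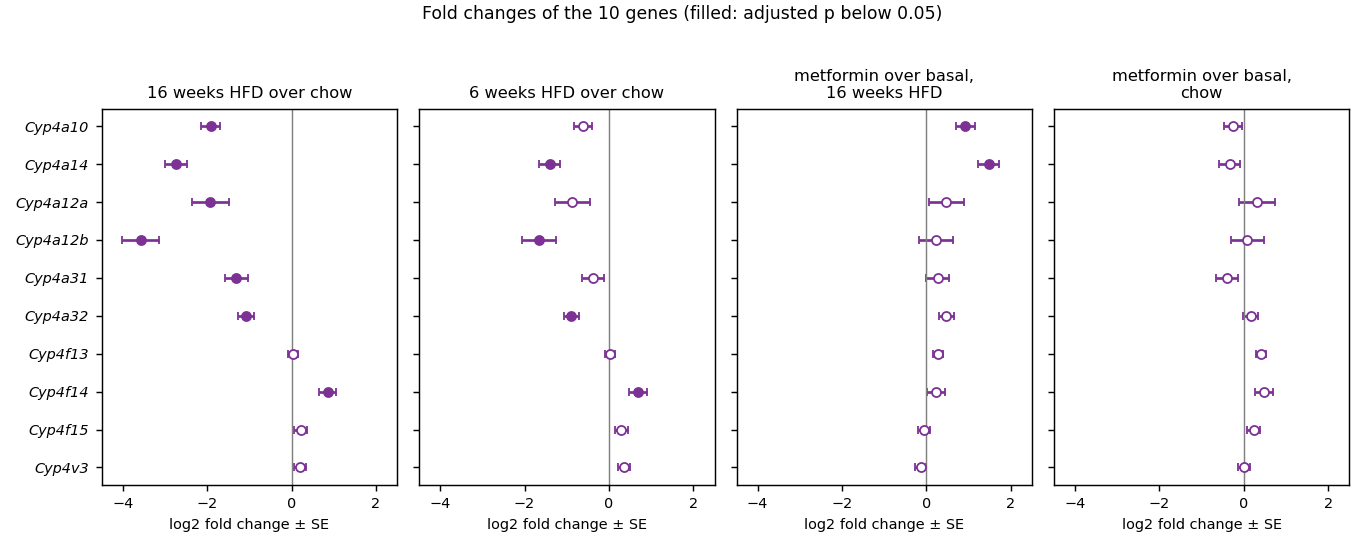
Log2 fold change ± standard error of the 10 genes for 16-week HFD over chow, 6-week HFD over chow, metformin over basal on 16-week HFD, and metformin over basal on chow; filled points have an edgeR adjusted p below 0.05. The Cyp4a genes lie left of 0 after HFD and Cyp4f14 lies right of it, while metformin moves Cyp4a14 (1.47) and Cyp4a10 (0.92) to the right on 16-week HFD.

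Metformin, a biguanide that lowers hepatic glucose output, was followed by higher Cyp4a14 and Cyp4a10 on 16-week HFD. These were the 2 called of 10 genes, where 28.4% of tested genes were called and 16.9% were higher. Cyp4a14 had 5846, 5842 and 4468 CPM with metformin on 16-week HFD, against 2107, 2275 and 1460 CPM in basal livers of that diet, 2.77-fold higher (1.47 ± 0.25, edgeR adjusted p = 9.48e-05). Cyp4a10 had 3206, 2719 and 2971 CPM with metformin, against 1669, 1650 and 1397 CPM in basal livers, 1.89-fold higher (0.92 ± 0.22, edgeR adjusted p = 0.0019). Every metformin library exceeded every basal library for both genes. These p-values draw on the spread of all 45 libraries. In a fit of only the 6 libraries compared, the folds were the same but the adjusted p was 0.0693 for Cyp4a14 and 0.109 for Cyp4a10, and the number of genes called fell to 16, against 3992 in the fit of all libraries. Without replicate 1 of both groups the values were 1.47 (edgeR adjusted p = 0.00216) and 0.91 (edgeR adjusted p = 0.0221). With the trends of exon length and GC content removed, both genes stayed called, while the number of all genes called was 2239.

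The other 4 Cyp4a genes were not called by this test. Cyp4a32 had 249.7, 233 and 232 CPM with metformin on 16-week HFD and 191, 176 and 149 CPM in basal livers, every metformin library above every basal one, and it just missed the threshold (0.47 ± 0.18, edgeR adjusted p = 0.0502). DESeq2 called it (adjusted p = 0.0424), and so did edgeR without basal replicate 1 (0.043). The sum of Cyp4a10, Cyp4a31 and Cyp4a32 was called (0.86, edgeR adjusted p = 0.00253), and that of Cyp4a12a and Cyp4a12b was not (0.42, edgeR adjusted p = 0.45). Cyp4a10 made up most of the first sum, at 2965 of 3283 CPM with metformin and 1572 of 1811 CPM in basal livers. That sum therefore says little about Cyp4a31 or Cyp4a32. Cyp4a12b had 17.9, 11.8 and 20.3 CPM with metformin, against 21.2, 14.4 and 7.32 CPM in basal livers, so that its libraries overlapped. Cyp4a12a had 115, 45.7 and 81.8 CPM with metformin (0.47, edgeR adjusted p = 0.44), and Cyp4a31 had 95.4, 72.2 and 73.2 CPM (0.27, edgeR adjusted p = 0.479). Summed, the 6 Cyp4a genes averaged 8766 ± 853 CPM with metformin on 16-week HFD and 3831 ± 634 CPM in basal livers (SD, n = 3 each), below the 19965 CPM of chow basal livers. Cell type markers also moved in this comparison: 4 of 8 stellate cell and matrix genes and 3 of 7 liver endothelial genes were called lower with metformin, where 11.5% of tested genes were called lower, and the summed hepatocyte list had 124397 to 143114 CPM with metformin and 89417 to 112321 CPM in basal livers. Their part in the Cyp4a result was not tested.

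On chow and on 6-week HFD, metformin changed none of the 10 genes at the threshold, where 1.94% and 3.17% of tested genes were called. In those 20 edgeR tests 5 had an unadjusted p below 0.05, with log2 fold changes over all 20 of -0.40 to 0.55; DESeq2 and a fit of only the 6 libraries each called 1 member on chow and none on 6-week HFD. Cyp4a14 had 7648, 9646 and 13760 CPM with metformin on chow and 4878, 5617 and 7024 CPM with metformin on 6-week HFD, and the chow metformin libraries had the widest SD of the 14 groups for this gene (3116 CPM). The difference between the metformin effects on 16-week HFD and chow was called for Cyp4a14 (1.81 ± 0.35, edgeR adjusted p = 0.00587) and Cyp4a10 (1.17 ± 0.30, edgeR adjusted p = 0.0261), with 4.96% of tested genes called and 3.23% called higher. The Cyp4a14 call was lost in the fit of only the 4 groups concerned (adjusted p = 0.119), and the Cyp4a10 call in 8 of 20 alternatives. These were the same fit (0.119), the removal of replicate 1 of both 16-week HFD groups (0.0611), and the removal of a single library: 16-week HFD metformin replicate 1, 16-week HFD basal replicate 2 or 3, chow metformin replicate 1 or 2, or chow basal replicate 2 (0.0546 to 0.0883). For 6-week HFD against chow the same test called no member by edgeR or DESeq2 (0 of 10 with an unadjusted p below 0.05), with 0.0427% of tested genes called.

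With metformin in both diets, 16-week HFD livers had less Cyp4a mRNA than chow livers. There, 5 Cyp4a genes were called lower and Cyp4f14 higher, where 20.4% of tested genes were called (9.25% lower and 11.2% higher). Cyp4a12b, not called with metformin on any diet, differed by -3.43 ± 0.43 (edgeR adjusted p = 2.11e-06) and Cyp4a12a by -1.77 ± 0.43 (edgeR adjusted p = 0.00393). Cyp4a14 differed by -0.94 ± 0.25 (edgeR adjusted p = 0.00681), a call lost without replicate 3 of chow metformin (adjusted p = 0.0785) and with only these groups in the fit (0.0921). Cyp4a10 differed by -0.75 ± 0.21 (edgeR adjusted p = 0.0124), with the same losses (0.0627 and 0.0763), and Cyp4a32 by -0.77 ± 0.18 (edgeR adjusted p = 0.00288). The sum of Cyp4a12a and Cyp4a12b differed by -2.22 (edgeR adjusted p = 0.000238) and that of Cyp4a10, Cyp4a31 and Cyp4a32 by -0.75 (edgeR adjusted p = 0.0102). Cyp4f14, with 173, 130.3 and 163 CPM on 16-week HFD and 112, 114 and 83.4 CPM on chow, was called (0.59 ± 0.21, edgeR adjusted p = 0.0426) but lost that call in 10 of 14 alternatives, among them the removal of any chow metformin library or of 16-week HFD metformin replicate 1 or 3 (adjusted p of 0.0534 to 0.197). After 6 weeks of HFD, Cyp4a12b (-1.73, edgeR adjusted p = 0.00827) and Cyp4a14 (-0.83, edgeR adjusted p = 0.0477) were lower than in chow livers under metformin, where 4.43% of tested genes were called and 2.16% were lower. The Cyp4a12b call was lost without replicate 1 or 2 of 6-week HFD metformin (0.0661 and 0.0573). The Cyp4a14 call was lost without those libraries (0.211 and 0.143), without chow metformin replicate 2 or 3 (0.0766 and 0.327), with no filter (0.0576) and with only these groups in the fit (0.0989). Cyp4a12a missed the threshold (-1.35, edgeR adjusted p = 0.0622), but 5 of 13 alternatives called it, among them the replicate block (0.0101) and DESeq2 (0.0376), and its sum with Cyp4a12b was called (-1.49, edgeR adjusted p = 0.0225). The sum of Cyp4a10, Cyp4a31 and Cyp4a32 was not (-0.44, edgeR adjusted p = 0.25).

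Acute insulin moved few of these genes. On chow no member was called at any of the 4 times by edgeR, where 1.13%, 0.0711%, 1.39% and 5.08% of tested genes were called at 15, 30, 60 and 120 min; 6 of 40 tests had an unadjusted p below 0.05, DESeq2 called none, and limma on the authors' normalized values called 2 members at 120 min. The log2 fold changes ran over -0.55, for Cyp4a32 at 60 min, to 0.52, for Cyp4f14 at 120 min. On 16-week HFD the share of genes called was 0%, 3.55%, 0.00711% and 0%, and the 1 member called was Cyp4a32 at 30 min, when 1.77% of genes were lower. It had 87.8 to 119.9 CPM with a median of 109 CPM in the 6 insulin libraries, against 191, 176 and 149 CPM in basal livers (-0.70 ± 0.15, edgeR adjusted p = 0.015). No insulin library reached the basal range, yet the call was lost in 5 of 19 alternatives, with an adjusted p of 0.202 without basal replicate 1 and 0.0558 without basal replicate 2. Without insulin replicates 4 to 6, which stood apart, Cyp4a32 was called at -0.65 (edgeR adjusted p = 0.0223), and Cyp4a10 (-0.66, edgeR adjusted p = 0.0265, against -0.41 with them) and Cyp4v3 (-0.49, edgeR adjusted p = 0.0108, against -0.33) were called lower too. All calls over the genes tested then numbered 1744, against 500 with them. With all 6 insulin libraries kept, such calls numbered 984 with DESeq2 and 10 with only the groups compared in the fit. They numbered 0 without replicate 1 of the 16-week HFD basal and metformin groups, and 0 with the authors' normalized values. Cyp4a12b at 15 min was the highest of the 40 values (1.30, edgeR adjusted p = 0.802), with 38.7, 37.7 and 29.4 CPM after insulin and 21.2, 14.4 and 7.32 CPM in basal livers. All 3 of those insulin libraries lay above the basal ones. Insulin effects did not differ between 16-week HFD and chow at the threshold for any member by edgeR (9 of 40 tests with an unadjusted p below 0.05, and none called by DESeq2), where 0.00711%, 0%, 0% and 0.839% of genes were called. Without replicates 4 to 6 no member was called at 30 min either, with 35 of all genes called. The closest was Cyp4a14 at 120 min (1.05 ± 0.35, edgeR adjusted p = 0.132), with 2652, 2295 and 3942 CPM after insulin on 16-week HFD and 10102, 9970 and 8725 CPM after insulin on chow.

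Ranked by group mean, Cyp4a14 ran in the order chow basal (13106 CPM), chow insulin 15 min, 60 min, chow metformin, insulin 30 and 120 min (9599 CPM), then 6-week HFD metformin (5840 CPM), 16-week HFD metformin (5385 CPM), 6-week HFD basal (4941 CPM) and the 16-week HFD groups without metformin (1844 to 2963 CPM). Its libraries fell into 3 ranges that did not overlap: the chow groups, then both 6-week HFD groups with 16-week HFD metformin, then the other 16-week HFD groups. Cyp4a10 ranked all 6 chow groups first (4502 to 5938 CPM), then 6-week HFD basal and metformin (3858 and 3682 CPM), 16-week HFD metformin (2965 CPM) and the other 16-week HFD groups (1180 to 1822 CPM). Every library of 16-week HFD metformin lay below all chow and 6-week HFD libraries and above all other 16-week HFD libraries, while chow and 6-week HFD overlapped. For Cyp4a12b (group means of 14.3 to 179.8 CPM) every 16-week HFD library lay below all others. For Cyp4a12a (58.4 to 276 CPM) and Cyp4a31 (42.2 to 184 CPM) no step in the order parted all libraries above it from all below. Some neighbours in rank were apart: for Cyp4a12a chow insulin 60 min above 6-week HFD basal, although a chow insulin 120 min library, at 85.3 CPM, lay within the HFD range. For Cyp4a32, Cyp4f13, Cyp4f14, Cyp4f15 and Cyp4v3 each group overlapped its neighbour in rank. Their means ran over 106 to 407 CPM, 46.6 to 73.1 CPM, 70.1 to 165 CPM, 149 to 197 CPM and 357 to 561 CPM in that order.

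Ratios between Cyp4a genes differed between 16-week HFD and chow in livers without metformin. They were chosen after the values had been seen and are given as a description, without a test, over the 18 HFD and 15 chow libraries of the 5 conditions without metformin. Reads of Cyp4a12b per read of its near copy Cyp4a12a averaged 0.239 ± 0.0914 in 16-week HFD basal livers, 0.45 ± 0.0664 in 6-week HFD basal livers and 0.768 ± 0.0329 in chow basal livers (SD, n = 3 each). The log2 ratio was lower on 16-week HFD by -1.94 to -0.62 in the 5 conditions, with a mean of -1.48. Among the near copies of Cyp4a10 the ratios ran the other way. Cyp4a32 per read of Cyp4a10 averaged 0.109 in 16-week HFD basal livers and 0.0611 in chow basal livers, with log2 differences of 0.59 to 1.01 in the 5 conditions. This ratio was not graded by time on HFD. The 6-week HFD basal libraries, at 0.0459 to 0.0532, lay below the chow basal libraries, at 0.0601 to 0.0621. With metformin this ratio averaged 0.0805 on 16-week HFD, 0.0775 on 6-week HFD and 0.0824 on chow, with overlapping libraries. Cyp4a31 per read of Cyp4a10 averaged 0.0418 on 16-week HFD and 0.0277 on chow (0.31 to 0.58). Cyp4a14 is no near copy, and its reads per read of Cyp4a10 averaged 1.23 in 16-week HFD basal livers and 2.21 in chow basal livers (-0.85 to -0.15). With metformin, 16-week HFD and chow libraries also overlapped for Cyp4a31 (means of 0.027 and 0.0246) and Cyp4a14 (1.83 and 2.06) per read of Cyp4a10. Those of Cyp4a12b per read of Cyp4a12a did not overlap (0.221 and 0.659). Reads in shared stretches may have been dropped or placed on the other copy, and their part in these ratios was not tested.

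**Figure D5:**
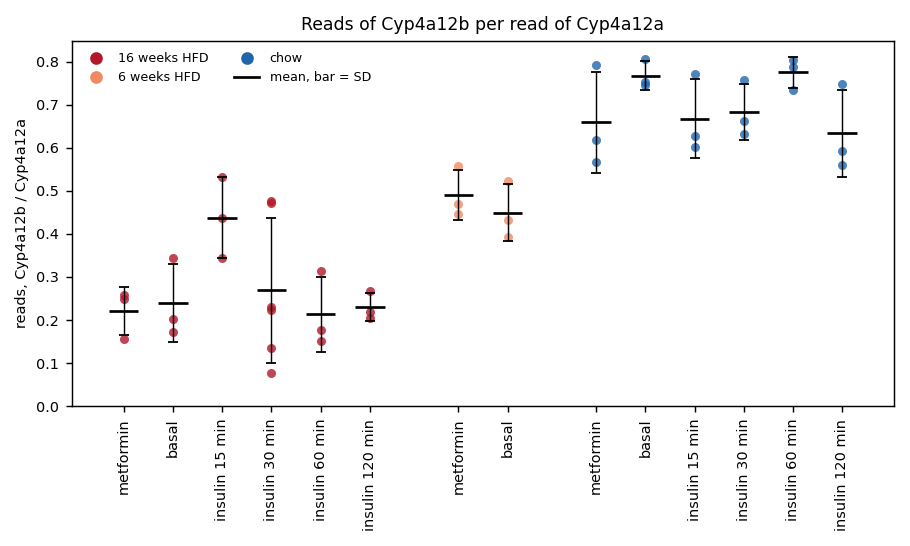
Reads of Cyp4a12b per read of Cyp4a12a in each library by group, with the group mean and SD, on a linear axis from 0. The ratio lies at 0.172 to 0.343 in the 16-week HFD basal libraries and at 0.746 to 0.806 in the chow basal libraries, with the 6-week HFD groups between them.

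The wider pathway was read from lists of textbook members, given as counts called by edgeR in 16-week HFD over chow basal livers. These lists and those further below were chosen with earlier results of these data known. Their shares are therefore a description and not a test of a pathway. The lists overlap: Abcd2 and Acot3 stand in the peroxisomal and female-biased lists, Nudt7 in the peroxisomal and male-biased lists, and Aldh3a2 among PPAR alpha targets and omega-hydroxy oxidation. Of 25 PPAR alpha targets outside the peroxisome, 13 were lower and 1 higher, with a median log2 fold change of -0.45. Retsat, which saturates retinol, averaged 972 CPM on 16-week HFD and 2374 CPM on chow (-1.29 ± 0.19, adjusted p = 5.38e-06). Hadhb, a subunit of the mitochondrial trifunctional protein, differed by -0.72 ± 0.11 (adjusted p = 8.02e-06) and Acot1, an acyl-CoA thioesterase, by -1.77 ± 0.30 (adjusted p = 2.31e-05). Hadhb and Acot1 share 59.9% and 35.7% of their 40-base words with other transcripts, so their counts are uncertain. Peroxisomal beta-oxidation is the step that shortens dicarboxylic acids, and its list of 22 genes also holds Pex11a, Pex19 and acyl-CoA thioesterases such as Acot12. Of these 22 genes, 8 were lower and 2 higher (median -0.20). Ehhadh, the peroxisomal bifunctional enzyme, averaged 639 CPM on 16-week HFD and 5334 CPM on chow (-3.06 ± 0.37, adjusted p = 2.25e-07). Acot12, a thioesterase whose exons overlap a gene on the opposite strand in libraries not stated to keep strand, differed by -0.87 ± 0.11 (adjusted p = 3.51e-07), and Crot, which moves shortened acyl groups out of the peroxisome as carnitine esters, by -0.89 ± 0.17 (adjusted p = 0.000145). More than 1 in 3 genes of each list were thus lower, where 16.3% of all tested genes were. After 6 weeks the same lists had 1 and 2 genes lower, and 2 and 1 higher, where 5.03% of tested genes were lower and 5.98% higher.

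With metformin on 16-week HFD, 14 of the 25 PPAR alpha targets and 7 of the 22 peroxisomal genes were called higher and none lower by edgeR, with medians of 0.47 and 0.38 beside -0.01 over all genes and 16.9% of genes called higher. Hadhb rose by 0.66 ± 0.11 (adjusted p = 8.34e-05) and Crot by 0.58 ± 0.17 (adjusted p = 0.0106), while Ehhadh, at 1165 CPM with metformin and 639 CPM in basal livers, missed the threshold (0.87 ± 0.35, adjusted p = 0.0597). On chow none of either list was called with metformin, and the difference between the diets was called for 6 and 4 genes. The fit of only the 6 libraries, in which 16 of all genes were called, bears on these counts as on Cyp4a14. Without replicate 1 of both groups, calls over all genes numbered 2117 in place of 3992, and the list counts were not redone.

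Genes of the steps that flank the omega-hydroxylases were read in the same comparison, where 16% of tested genes were higher and 16.3% lower. Of 4 tested electron donors of P450 enzymes only Cyb5r3, the cytochrome b5 reductase, was called on 16-week HFD, at 356 CPM against 173 CPM on chow (1.04 ± 0.14, adjusted p = 1.39e-06). Of 9 genes that oxidise omega-hydroxy fatty acids or activate the dicarboxylic acids, the alcohol dehydrogenases Adh1 (0.96 ± 0.19, adjusted p = 0.000235) and Adh4 (0.85 ± 0.27, adjusted p = 0.0146) were higher and the acyl-CoA synthetase Acsl5 was lower (-0.44 ± 0.12, adjusted p = 0.00505). Of 12 tested receptors and regulators, 3 were higher and none lower: Rxra, the partner of PPAR alpha on DNA (0.48 ± 0.10, adjusted p = 0.000337), Stat5a (0.74 ± 0.16, adjusted p = 0.000551) and Nr1h3, the liver X receptor alpha (0.27 ± 0.09, adjusted p = 0.0171). Among 5 tested Cyp4 genes beyond the 10, Cyp4f17 was lower, at 10.2 CPM on 16-week HFD and 19.5 CPM on chow (-0.93 ± 0.14, adjusted p = 5.25e-06), and so was Cyp4f39, at 0.19 CPM on 16-week HFD and 0.808 CPM on chow (adjusted p = 0.000734).

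Since Cyp4a12a is male-biased in mice, sex-biased liver genes were read too. Of 17 male-biased genes, 11 were lower and 1 higher on 16-week HFD (median -1.11), where 16.3% of tested genes were lower and 16% higher. Ugt2b1, a glucuronosyltransferase, differed by -1.11 ± 0.21 (adjusted p = 0.000102), Serpina3k, a secreted protease inhibitor, by -1.28 ± 0.27 (adjusted p = 0.000382) and the complement gene C6 by -1.23 ± 0.26 (adjusted p = 0.000464). Of 17 tested female-biased genes, 6 were higher and 2 lower (median -0.06). Cyp2b9 averaged 349 CPM on 16-week HFD and 1.09 CPM on chow (8.36 ± 0.83, adjusted p = 9.57e-09). With metformin on 16-week HFD, 2 of the 17 male-biased genes were higher and none lower, where 16.9% of tested genes were higher and 11.5% lower, and Cyp2b9 averaged 291 CPM with metformin and 349 CPM in basal livers, without a call.

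Markers of other tissues differed between basal groups. The summed pancreatic acinar list was at 2.03 to 169 CPM in 16-week HFD basal libraries, 1.5 to 124 CPM in 6-week HFD basal libraries and 289 to 1826 CPM in chow basal libraries, at most 0.183% of reads. Insulin groups reached more. On 16-week HFD the list reached 19370 CPM (1.94% of reads) at 15 min and 7867 CPM (0.787%) at 30 min, and on chow 2807 CPM (0.281%) at 15 min. The summed adipocyte list was at 9.7 to 19.6 CPM on 16-week HFD and 0.372 to 2.82 CPM on chow. Skeletal muscle markers reached 1305 CPM in 1 library of 6-week HFD basal, against 0.353 to 0.968 CPM on 16-week HFD and 0.637 to 156 CPM on chow. Their part in the Cyp4 results was not tested.

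The 5 genes outside the members whose group means were most like those of a member were found by Pearson's r of mean log2 CPM over the 14 groups. The search covered 9335 genes with a mean of at least 5 CPM, a number that includes the members. The 14 means include 6 from each of the extreme diets, so any gene that separates those diets scores high. Cyp4a10 was most like Retsat (r = 0.988), Copb1 (0.981), Zfand6 (0.977), Ephx2 (0.973) and Abcb4 (0.970). Cyp4a14 was most like Fbxo8 (0.987), Ufd1l (0.982), Serinc1 (0.981), Tdo2 (0.980) and Slc25a46 (0.980), and Cyp4a12a was most like Ahcyl1 (0.972), Bag4 (0.971), Brap (0.969), Ranbp9 (0.959) and Dmtf1 (0.959). No gene was named for more than 1 member. Bag4 shares 20.1% of its 40-base words with other transcripts, and Ranbp9 and Dmtf1 overlap exons on the opposite strand, so their counts are uncertain. Cyp4f14 was most like Akr1d1 (0.946), Exoc7 (0.943), Asgr2 (0.942), C4bp (0.942) and Ifi35 (0.940), while for Cyp4v3, at a lower likeness, these were Sdr9c7 (0.888), Cpox (0.861), Serpina12 (0.853), Npr2 (0.849) and Aldh9a1 (0.846). Within the family, Cyp4a10 had r = 0.97 with Cyp4a14 and Cyp4a31, 0.92 with Cyp4a32, 0.91 with Cyp4a12a and Cyp4a12b, 0.68 with Cyp4f13, and -0.53 with Cyp4f14.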

How the data were processed

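Per the labels' protocols, TruSeq version 1 libraries of polyA RNA were sequenced as paired reads, with no strand marking stated. Per the submitters' processing notes, TopHat 1.4.0, HTSeq (version not given in the sources used here) and DESeq2 1.0.18 were used with mm9. Every result rests on the raw counts that the authors deposited for each gene. The deposited signal values, normalized by the authors with CQN and DESeq2, served 1 alternative, as log2(value + 1) with limma 3.58.1. The deposited gene model file, unit other, gave positions and exon lengths.

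The 10 genes and all lists were chosen with earlier results of these data known. Low genes were removed with filterByExpr (minimum count 10). A single edgeR 4.0.16 fit with TMM scaling took all 45 libraries, with 1 coefficient per group, and 26 contrasts were tested by the quasi-likelihood test with Benjamini-Hochberg adjustment at 0.05. The script was tested on simulated data. Library depth was 18.2 to 50.3 M reads, and the spread between libraries limits precision. No pair of libraries agreed within sampling noise, and none was left out. Coding sequences, on GRCm38, came from GENCODE M21 and promoters from RefSeq. Named are all 10 genes, the 5 genes most like each of 5 members, and the 2 or 3 list members with the smallest adjusted p in 16-week HFD over chow basal livers; female-biased Hao2 and Cyp2b13, at or near 0 on chow, were left without a fold. After seeing the data, copy ratios and 2 alternatives were added: the replicate block with length and GC trends removed, and leaving out replicate 1 of the 16-week HFD metformin and basal groups together.

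Replicate numbers recur across groups, without a label tying a number to an animal, a litter or a date. Metformin and basal libraries of equal number shifted together around the means of their groups. Their correlations were 0.24, 0.15 and 0.12 with 16 weeks of HFD, and 0.41, 0.16 and 0.3 with 6 weeks. The same held for insulin 15 and 120 min on 16-week HFD (0.38, 0.22 and 0.57) and on chow (0.35, 0.15 and 0.1), and for 6-week HFD metformin with chow basal (0.29, 0.13 and 0.25), groups that were not compared with each other. The reported fit has no block, and the replicate block was run as an alternative. R 4.3.3 and Python 3.11.15 were used.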

Additional observations from a re-analysis of the deposited data

Results flagged for a closer look

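For 2 genes the effect of metformin differed between 16-week HFD and chow by the test of the difference itself. For Cyp4a14 the log2 difference between the effects was 1.81 ± 0.35 (edgeR adjusted p = 0.00587), and for Cyp4a10 it was 1.17 ± 0.30 (edgeR adjusted p = 0.0261). Both calls were lost with only the groups concerned in the fit (edgeR adjusted p = 0.119 for each). The Cyp4a10 call was lost in 8 of 20 alternatives, that fit among them. On 16-week HFD all 3 metformin libraries lay above all 3 basal libraries for both genes, whereas on chow the libraries overlapped for Cyp4a14 and Cyp4a10. In the group of 6 libraries, the only one large enough for a test of a far library, no member had one.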

How the results depend on the processing

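Over 70 results, 523 of 571 values from alternatives other than single left-out libraries kept their direction and side of the threshold, 24 lost a call, 24 gained one and none reversed. Of 462 values with a library left out, 404 were kept, 53 lost a call, 5 gained one and none reversed. The 7 calls of 16-week HFD over chow in basal livers were the same in each. With only the groups compared in the fit, the number of members called was 3 in place of 6 for 16-week HFD over chow under metformin, 0 in place of 2 for metformin on 16-week HFD, 0 in place of 2 for metformin by diet, 4 in place of 8 for 16-week HFD over chow at 60 min of insulin, 0 in place of 1 for 30 min of insulin on 16-week HFD, and 1 in place of 0 for metformin on chow and for 120 min of insulin on chow. In that fit, calls over all genes were 16 in place of 3992 for metformin on 16-week HFD, 267 in place of 2871 for 16-week HFD over chow under metformin and 0 in place of 698 for metformin by diet; with trends removed they were 2239, 2295 and 224. Fewer libraries estimate the spread there, but not every such fit lost calls. In basal livers it gave 4553 in place of 4539 for 16-week HFD over chow and 715 in place of 1436 for 16- over 6-week HFD. For metformin on 6-week HFD it gave 714 in place of 446. In the 16-week HFD metformin group the mean chi-square per gene was 124 and 88.3 for replicate 1 with replicates 2 and 3. Between replicates 2 and 3 it was 29.7. The cause of the lost calls was not tested. For 6-week HFD over chow under metformin, 2 members were called, against 1 with no filter and 4 with DESeq2. DESeq2 called 1 for metformin on chow and 2 for 30 min of insulin on 16-week HFD. The authors' normalized values gave 2 for 120 min of insulin on chow and 0 for 30 min on 16-week HFD. In that last comparison, 3 were called when insulin replicates 4 to 6, which stand apart from replicates 1 to 3, were left out. Without replicate 1 of 16-week HFD metformin and basal, 0 were called there and 1 for metformin by diet.

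With the replicate block, 4 members were called in 6-week HFD over chow under metformin, and 3 at 30 min of insulin on 16-week HFD. These counts held with or without trends removed. Replicates 4 to 6 occur only in that last insulin group, so each takes its own block coefficient and adds nothing to the contrast. The 3 calls at 30 min therefore in effect repeat the fit without replicates 4 to 6 and are no separate check. Cyp4a10 in 6-week HFD over chow basal livers had an edgeR adjusted p of 0.0244 with the block. No other count of members moved by over 1.5 times, metformin on both HFD diets included. With single libraries left out, counts ran over 3 to 5 and 3 to 4 for 6-week HFD over chow and 16- over 6-week HFD in basal livers, 3 to 6 and 0 to 3 for 16-week and 6-week HFD over chow under metformin, 2 to 4 for metformin on 16-week HFD, 0 to 1 on 6-week HFD, 1 to 2 for metformin by diet, 0 to 3 for 30 min of insulin on 16-week HFD, 0 to 1 for its difference by diet, and 4 to 8 and 4 to 6 for 16-week HFD over chow at 60 and 120 min. Depth was no limit for the members, the lowest count being 166 reads.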
